A study of Mus musculus with 4 samples.

Results

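Fc receptors are the surface proteins with which blood cells read antibodies, and 8 mouse genes of this family and its shared chain were followed through the cell types of peripheral blood: Fcer1g, Fcer1a, Ms4a2, Fcer2a, Fcgr1, Fcgr2b, Fcgr3 and Fcgr4. They were taken by name from the 14697 genes of the deposited table of UMI counts (unique molecular identifiers, each UMI standing for 1 captured RNA molecule), and all 8 had UMIs. The blood came from C57BL/6 female mice of 4 months (young) or 24 months (old), supplied by the National Institute on Aging. Mononuclear cells were separated on a density medium and captured by 10x Chromium 3′ chemistry, and 2 mice were pooled for each of the 2 young and 2 old samples, so that a sample, and not a cell or a mouse, is the replicate (n = 2 per age). The question put to the data was which cells carried RNA of which receptor, and whether the level differed between the ages.

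IgG is bound by Fcγ receptors. Fcgr1, Fcgr3 and Fcgr4 encode ligand-binding chains of activating receptors, which in the mouse depend on the common γ chain encoded by Fcer1g for surface expression and for signaling through its immunoreceptor tyrosine-based activation motif, whereas Fcgr2b encodes the inhibitory receptor, which carries its own inhibitory motif and is the IgG receptor of B cells. IgE is bound with high affinity by a complex of the α chain (Fcer1a), the β chain (Ms4a2) and the γ chain, which arms mast cells and basophils, and with low affinity by CD23 (Fcer2a), a lectin-like protein of mature follicular B cells.

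Cells were placed in types by raw UMIs of marker genes that are not members. The 6 types of interest held 10317 of the 14588 cells: 9159 B cells, 264 Ly6c2-high (classical) and 374 Ly6c2-low (nonclassical) monocytes, 348 NK cells, 58 dendritic cells and 114 cells with a UMI of Cd200r3, a receptor of basophils. A further 2143 T cells, taken as a type with little of these receptors, are set beside the members as a background level. Whether that level comes from RNA free in the suspension, from doublets or from the T cells was not tested. Samples held 9521253 to 18658072 UMIs, and 11 to 24 cell barcodes were shared between any pair of samples. Of markers not used for gating, the number with their highest level in the matching type was 6 of 6 for B cells, 7 of 7 for NK cells, 5 of 6 for Ly6c2-high and 8 of 8 for Ly6c2-low monocytes, 5 of 7 for dendritic cells, 5 of 5 for T cells and 7 of 8 for the Cd200r3-positive cells. The label basophil was not borne out for all Cd200r3-positive cells: 83 of the 114 had a single Cd200r3 UMI, 29 carried 4 or more UMIs of B cell markers and 44 carried 2 or more of T cell markers. The 44 under the limits set for other lineages (at most 2 UMIs of B cell, 1 of T cell and 1 of NK cell gating genes, and 0 of Csf1r) were 6, 23, 11 and 4 cells in young 1, young 2, old 1 and old 2. They are referred to as of no other lineage, though they still held some of these markers, and included 34 of the 37 cells with a UMI of Mcpt8, a basophil protease. The 114 cells are therefore called Cd200r3-positive cells below, and their values are given for the whole gate and for these 44 cells.

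Levels are given as CPM, the UMIs of a gene summed over the cells of a type in a sample and scaled to 1000000 UMIs of those cells, in the order young 1, young 2, old 1 and old 2. Types were compared with edgeR's quasi-likelihood test on the summed counts with the sample as a term, with Benjamini-Hochberg adjustment over 5688 genes and a threshold of 0.05. These p-values measure the spread of the sums that is left after the sample term, over the 7 types together. Those of the age tests below measure the spread between pools of an age within a type. In a summed level fewer cells with a gene and less RNA per cell cannot be told apart. Among the members, 5 of 8 were higher than in T cells in Ly6c2-high monocytes, where 24.9% of all genes were higher, 5 in Ly6c2-low monocytes (24.6%), 3 in NK cells (8.63%), 3 in B cells (18.0%), 4 in dendritic cells (15.7%) and 5 in Cd200r3-positive cells (7.09%), and none was lower than in T cells in these 6 tests. The type with the highest mean was above the next highest type for 6 of 8 members by edgeR and 3 of 8 by DESeq2. That pair was picked by the means, so its test is not independent of the choice. Between the types of these pairs, 7.98% to 16.1% of all genes differed in either direction by edgeR. The share of all genes that were above in their own picked pair was not computed. A gene entered this fit by its share of cells with a UMI in any type. Fcer1a and Ms4a2 did so through the Cd200r3-positive cells alone, at 34.2% and 29.8% of them. No other type exceeded 1.72% for Fcer1a and 0.197% for Ms4a2. In the plot of all members Fcer1g, Fcgr3 and Fcgr2b spread over most myeloid cells and beyond. All 3 were also above T cells by the test in NK cells, Fcgr2b at the lowest level of them, and Fcgr2b also in B cells. Fcer1a, Ms4a2, Fcer2a and Fcgr4 were each high in 1 type, and Fcgr1 was found in both monocyte gates and in dendritic cells.

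**Figure D1:**
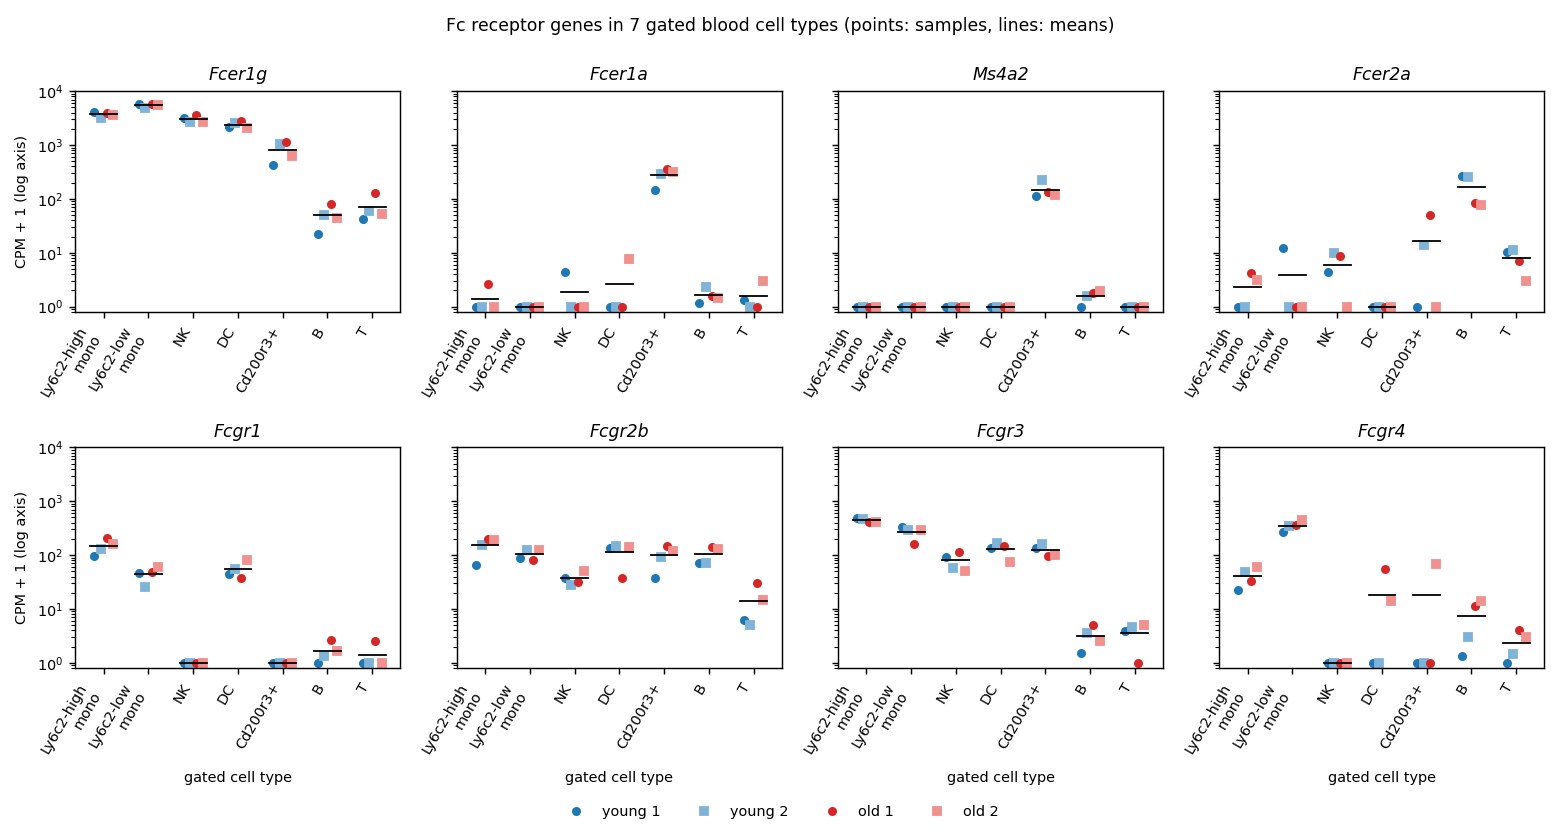
Level of each member (CPM + 1, log axis) in 7 gated types, with a point for each sample and a line at the mean of the 4 samples. Fcer1g reached 5799 CPM in Ly6c2-low monocytes and lay between 21.8 and 129 CPM in T and B cells, and Ms4a2 was above 1 CPM in the Cd200r3-positive cells alone.

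The shared γ chain gene Fcer1g (chr1:171229572-171234365, minus strand, GRCm38) was the most abundant member. It stood at 5754, 4779, 5799 and 5467 CPM in Ly6c2-low monocytes and at 4134, 3224, 3860.2 and 3575 CPM in Ly6c2-high monocytes. NK cells held 3229, 2668, 3562 and 2717 CPM, and dendritic cells held 2134, 2514, 2853 and 2081 CPM. The 2 monocyte gates did not overlap in CPM, but their difference of 0.57 on the log2 scale (SE 0.21) missed the threshold (adjusted p = 0.0763). The ranges of Ly6c2-high monocytes and NK cells overlapped, as did those of NK and dendritic cells. After each cell was thinned to 1000 UMIs, 94.7% of Ly6c2-high monocytes, 98.4% of Ly6c2-low monocytes and 92.8% of NK cells had an Fcer1g UMI. The share was 5.51% of T cells and 5.42% of B cells. In B cells the level was 21.8, 50.1, 79.5 and 43.7 CPM, which overlapped that of T cells (41.5 to 129 CPM). The source of this RNA was not tested.

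The IgE receptor chains Fcer1a (chr1:173221284-173227214, minus strand) and Ms4a2 (chr19:11615523-11623719, minus strand) were found in the Cd200r3-positive cells. Fcer1a stood there at 147, 286, 360 and 320 CPM, and Ms4a2 at 110, 221, 136 and 118 CPM. No other type exceeded 6.59 CPM of Fcer1a in any sample. Ms4a2 had 0 UMIs in both monocyte gates, NK, dendritic and T cells, where 0 of 374 Ly6c2-low monocytes allows a share of up to 0.802% of cells with a UMI and 0 of 2143 T cells up to 0.14%. Such limits are on cells with a UMI at this depth, not on cells that express the gene, since Ms4a2 was also missed in cells of its own type. Against B cells, the difference was 8.60 (SE 0.42, adjusted p = 3.82e-17) for Fcer1a and 7.68 (SE 0.55, adjusted p = 6.95e-10) for Ms4a2 on the log2 scale, where 10.9% of all genes differed. Against dendritic cells (16.1% of genes) Fcer1a also passed, but those cells held 1 UMI of it and no fold is given.

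In the 44 Cd200r3-positive cells of no other lineage both IgE chains were higher. Fcer1a stood at 1246, 840.0, 1223 and 1781 CPM and Ms4a2 at 935, 677, 463 and 594 CPM, with a UMI of Fcer1a in 81.8% and of Ms4a2 in 70.5% of these cells. The γ chain gene Fcer1g, at 417, 1059, 1127 and 624 CPM in the whole gate, stood at 3116, 2310.1, 3372 and 3264 CPM in them. Each of the 4 samples was thus above the whole gate for all 3 chains of the IgE receptor. The 44 cells are part of that gate, so the 2 levels are not independent. They held 103 of its 112 UMIs of Fcer1a, 58 of 64 of Ms4a2 and 264 of 350 of Fcer1g. Gating genes of B and T cells were used to choose the 44 cells. Of markers not used for it, 6 of B cells summed to 858 to 1854 CPM in the whole gate and 350.0 to 519 CPM in the 44 cells, and 5 of T cells to 97.2 to 1128 and 66.1 to 373 CPM, with old 2 no lower in the 44 cells (198 against 185 CPM). Red cell markers stood higher in the 44 cells in 3 of 4 samples, at 5089, 127427, 258860 and 182807 CPM, than in the whole gate, at 6203, 67862, 142982 and 39534 CPM, and their part in these levels was not tested. Of 2 mast cell markers in the table, both were at 0 in the 44 cells. These 2 summed to 436 to 736 CPM in NK cells, so they are not of mast cells alone. In the 44 cells 7 neutrophil markers summed to 104 to 490 CPM and 2 eosinophil markers to 0 to 208 CPM.

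**Figure D2:**
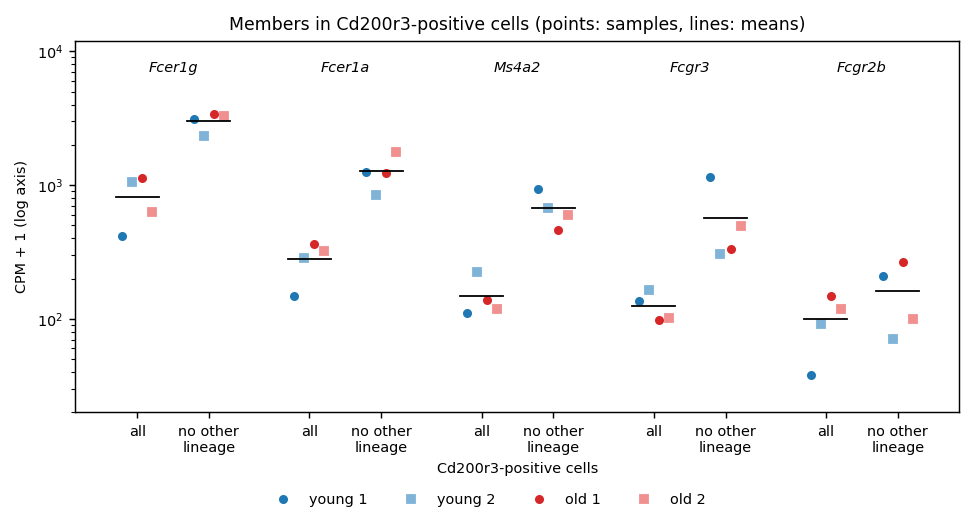
Level of 5 members (CPM + 1, log axis) in all 114 Cd200r3-positive cells and in the 44 of no other lineage, with a point for each sample and a line at the mean. Fcer1g, Fcer1a and Ms4a2 lay higher in the 44 cells in each of the 4 samples.

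Among IgG receptors the Cd200r3-positive cells held Fcgr3 and Fcgr2b. Fcgr1 had 0 UMIs in the 114 cells, which allows a share of up to 2.63% of cells with a UMI. Fcgr4 had 4 UMIs in the gate, all in old 2 (67.4 CPM), and 0 in the 44 cells, which allows up to 6.82% with a UMI. Fcgr3 stood at 135, 162, 97.2 and 101 CPM in the gate and at 1142, 303, 331 and 495 CPM in the 44 cells. Fcgr2b stood at 36.8, 91.0, 146 and 118 CPM in the gate, from 3 to 15 UMIs a sample, and at 208, 70.0, 264 and 98.9 CPM in the 44 cells, from 1 to 8 UMIs a sample.

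Genes whose pattern over the 28 sums of sample and type was most like that of the IgE chains were, by Pearson's r of log2(CPM + 1), Cd63 (0.970), Gata2 (0.964) and the gating gene Cd200r3 (0.963) for Fcer1a, and Cd200r3 (0.994), Gata2 (0.993) and Cpa3 (0.984) for Ms4a2. Gata2 encodes a GATA transcription factor and Cpa3 a granule protease of mast cells and basophils. Sums of a sample share its library and many genes of a type rise together, so these values are descriptions. Since the 2 IgE chains shared their type with Gata2, and Fcgr1 and Fcgr4 were each high in 1 monocyte gate, the bases before the start of these 4 genes are shown (RefSeq, GRCm38.p6, 5′ to 3′ on the strand of the gene, without annotated exon bases). Capitals mark the GATA core AGATAA and the PU.1 core GAGGAA, read on either strand, so that a match on the other strand is seen as TTATCT or TTCCTC.
Fcer1a (chr1:173227230-173227479, minus strand): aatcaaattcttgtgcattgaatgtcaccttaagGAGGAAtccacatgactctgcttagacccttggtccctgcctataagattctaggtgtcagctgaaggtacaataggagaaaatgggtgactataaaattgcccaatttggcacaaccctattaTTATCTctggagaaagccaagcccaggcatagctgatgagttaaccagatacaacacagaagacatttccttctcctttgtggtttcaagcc
Ms4a2 (chr19:11623720-11623969, minus strand): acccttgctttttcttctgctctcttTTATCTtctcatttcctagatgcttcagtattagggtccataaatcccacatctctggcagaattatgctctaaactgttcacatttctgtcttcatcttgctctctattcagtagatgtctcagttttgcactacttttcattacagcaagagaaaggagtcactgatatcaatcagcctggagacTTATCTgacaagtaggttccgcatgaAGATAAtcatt
Fcgr1 (chr3:96293970-96294219, minus strand): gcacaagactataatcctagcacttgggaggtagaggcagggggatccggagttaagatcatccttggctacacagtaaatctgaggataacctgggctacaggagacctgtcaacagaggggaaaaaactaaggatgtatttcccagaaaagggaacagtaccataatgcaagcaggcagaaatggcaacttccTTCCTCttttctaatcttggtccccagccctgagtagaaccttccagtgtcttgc
Fcgr4 (chr1:171018676-171018919, plus strand): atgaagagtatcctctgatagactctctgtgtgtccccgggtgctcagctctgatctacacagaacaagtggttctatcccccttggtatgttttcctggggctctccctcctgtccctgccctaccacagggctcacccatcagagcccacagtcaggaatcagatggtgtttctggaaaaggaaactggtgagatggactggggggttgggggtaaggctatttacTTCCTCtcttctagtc

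Within the 250 bases before each RefSeq start, AGATAA was found 3 times in Ms4a2 and once in Fcer1a and in no listed start of the other 6 members, whereas 9.99% of 32851 promoters held it. GAGGAA was found in Fcer1a, Fcgr1, Fcgr3 and Fcgr4, against 23.3% of all promoters. A match of 6 letters is not a bound site.

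Fcer2a (chr8:3681737-3694175, minus strand) was high in B cells. Its level there was 260 CPM in young 1, 254 in young 2, 81.5 in old 1 and 76.5 in old 2, which is taken up with age below. The next highest type was the Cd200r3-positive gate, with 0 to 48.6 CPM, which lay 3.38 below B cells on the log2 scale (SE 0.46, adjusted p = 1.28e-06). In the 44 Cd200r3-positive cells of no other lineage there was no Fcer2a UMI. T cells held 1.99 to 10.2 CPM. The pattern most like it was that of Chchd10 (r = 0.809), followed by Bcar3 (0.789) and Cnn3 (0.774).

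The IgG receptors divided the monocytes. Between Ly6c2-low and Ly6c2-high monocytes 3 members passed the test, where 12.8% of all genes did: Fcgr4 was higher in Ly6c2-low cells, and Fcgr1 and Fcgr3 were higher in Ly6c2-high cells. Fcgr4 (chr1:171018920-171029761, plus strand), whose product binds IgG2 subclasses and IgE immune complexes, stood at 263, 342, 356 and 454 CPM in Ly6c2-low and at 21.5, 47.8, 32.4 and 60.4 CPM in Ly6c2-high monocytes. The gates were far apart in each sample, with a difference of 3.50 on the log2 scale (SE 0.39, adjusted p = 4.74e-08). An Fcgr4 UMI was seen in 30.2% of Ly6c2-low and 5.30% of Ly6c2-high monocytes thinned to 1000 UMIs, and in 0.0933% of T cells. NK cells had 0 of 348 cells with an Fcgr4 UMI, which allows up to 0.862% with a UMI at their median of 2149.5 UMIs.

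Fcgr1 (chr3:96282909-96293969, minus strand), the high-affinity receptor for IgG, ran the opposite way, with 96.9, 131, 209 and 160.3 CPM in Ly6c2-high and 45.7, 24.7, 46.8 and 59.4 CPM in Ly6c2-low monocytes. All 4 samples showed that direction, and the difference was -1.76 (SE 0.34, adjusted p = 0.000365). Dendritic cells held 44.0, 54.7, 36.8 and 79.0 CPM from 2 to 12 UMIs a sample, below Ly6c2-high monocytes by the test (1.41, SE 0.42, adjusted p = 0.0352, where 7.98% of genes differed). NK cells and Cd200r3-positive cells had no Fcgr1 UMI. With cells thinned to 1000 UMIs the monocyte difference in Fcgr1 was -1.36 and no longer passed (adjusted p = 0.157).

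Fcgr3 (chr1:171051174-171064935, minus strand), a low-affinity receptor for IgG and the one NK cells are known for, stood at 484, 466, 419 and 412 CPM in Ly6c2-high and at 337, 296, 158 and 293 CPM in Ly6c2-low monocytes. The gates did not overlap, and the difference was -0.74 (SE 0.23, adjusted p = 0.0261). This call was lost without young 2 (adjusted p = 0.0705), without old 1 (0.135), without old 2 (0.0598) and with DESeq2 (0.148), and kept without young 1 (0.0335). In NK cells Fcgr3 stood at 93.2, 57.5, 115 and 50.8 CPM, 4.41 above T cells on the log2 scale (SE 0.47, adjusted p = 2.32e-09). Of NK cells, 16.1% had an Fcgr3 UMI at full depth and 6.61% after thinning, against 0.840% and 0.327% of T cells.

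The inhibitory Fcgr2b (chr1:170958617-170976547, minus strand) did not pass the test between the monocytes. It stood at 64.6, 155, 194 and 191 CPM in Ly6c2-high and at 85.7, 124, 80.5 and 123 CPM in Ly6c2-low monocytes, which overlapped (-0.55, SE 0.28, adjusted p = 0.207). The old samples alone gave -0.95 (adjusted p = 0.0460) and the young samples alone 0.026 (adjusted p = 1). Tested directly by edgeR, the difference of the age effect between the gates did not pass for Fcgr2b (-0.94, SE 0.52, unadjusted p = 0.0787). Dendritic cells held 132, 146, 36.8 and 138 CPM and B cells 71.2, 69.2, 139 and 130 CPM. In the order of means, from Ly6c2-high monocytes through dendritic cells, Ly6c2-low monocytes, B cells, Cd200r3-positive cells and NK cells to T cells, the ranges of every pair of neighbours overlapped. NK cells held 27.3 to 50.8 CPM, from 4 to 11 UMIs a sample, and T cells 4.00 to 28.9 CPM. Though these ranges overlapped, NK cells were above T cells by the edgeR test (1.63, SE 0.47, adjusted p = 0.00977), where 8.63% of genes were higher.

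**Figure D3:**
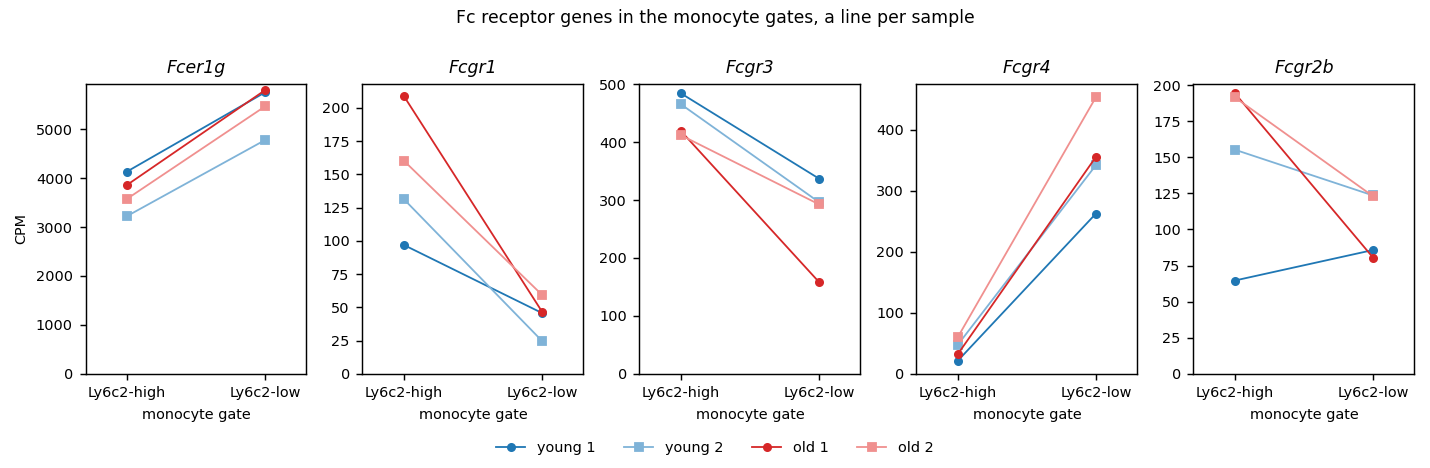
CPM of 5 members in Ly6c2-high and Ly6c2-low monocytes, with a line for each sample and axes from 0. Fcgr4 lay at 21.5 to 60.4 CPM in Ly6c2-high and 263 to 454 CPM in Ly6c2-low monocytes, Fcgr1 and Fcgr3 were lower in Ly6c2-low cells in each sample, and Fcgr2b was higher there in young 1 and lower in the other samples.

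Receptors were seen together in single monocytes. At full depth, 90.9% to 100% of Ly6c2-high monocytes in the 4 samples had a UMI of at least 1 of Fcgr1, Fcgr2b, Fcgr3 and Fcgr4, and 40.9% to 75.8% had UMIs of 2 or more. For Ly6c2-low monocytes, of lower depth (median 2462 against 4588 UMIs), these shares were 73.6% to 91.0% and 30.6% to 53.7%. NK cells had at least 1 in 17.0% to 32.7%. All of these cells had an Fcer1g UMI.

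UMIs of the 3 activating IgG receptors were set against those of the inhibitory one. Of the UMIs of Fcgr1, Fcgr3, Fcgr4 and Fcgr2b together, the activating share in Ly6c2-low monocytes was 88.3%, 84.3%, 87.4% and 86.8%, and in Ly6c2-high monocytes 90.3%, 80.6%, 77.3% and 76.8%. The 2 old Ly6c2-high values were below the 2 young ones, which rested on 6 and 13 Fcgr2b UMIs. NK cells had 71.8%, 67.9%, 78.9% and 50%, the last from 8 UMIs. In B cells the share was 1.21%, 6.65%, 10.3% and 10.6%. With 2 samples an age the exact permutation test cannot give a p under 0.33, and none of these shares was tested.

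**Figure D4:**
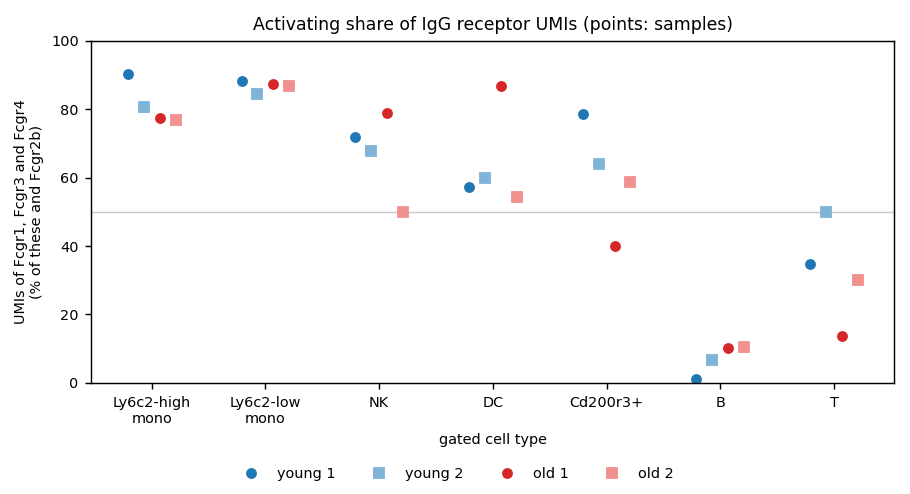
Percentage of IgG receptor UMIs that came from the activating genes Fcgr1, Fcgr3 and Fcgr4, for 7 gated types, with a point for each sample. Monocytes lay between 76.8% and 90.3%, and B cells between 1.21% and 10.6%.

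The genes sit in part side by side. Fcgr2b, Fcgr4, Fcgr3 and Fcer1g lie within 275749 bases of chromosome 1, with no other protein-coding gene between Fcgr2b, Fcgr4 and Fcgr3 and 7 between Fcgr3 and Fcer1g (GENCODE vM21). Fcgr4, which was high in Ly6c2-low monocytes, lies between Fcgr2b and Fcgr3. Among the 28 pairs of members 1 pair, Fcgr2b and Fcgr3, had stretches of 50 identical bases in their transcripts (166 such words, of 1733 in Fcgr3), so reads there could be split or lost in counting. Of the words in the last 500 bases of the transcripts, the end that 3′ chemistry reads, 33 of Fcgr2b were found in Fcgr3 and 0 of Fcgr3 in Fcgr2b. An antisense gene, Gm38204, overlaps an exon of Fcgr2b.

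Age was tested within each type on genes with a UMI in at least 10% of the cells of each age. Of 22 tests of members in 6 types, 2 passed, both in B cells: Fcer2a fell and Fcgr2b rose with age, where 6.35% of 2679 genes differed. In the other types 0 of 5 members passed in Ly6c2-high monocytes (0.790% of genes), 0 of 4 in Ly6c2-low monocytes (0.0378%), 0 of 2 in NK cells (0.626%), 0 of 4 in dendritic cells (0.206%) and 0 of 5 in Cd200r3-positive cells (0.374%) by edgeR, and DESeq2 called none of them either. At an unadjusted p under 0.05 there were 3 such members, Fcgr2b (0.90, SE 0.34, adjusted p = 0.335) and Fcgr1 (0.77, SE 0.33, adjusted p = 0.485) in Ly6c2-high and Fcgr4 (0.46, SE 0.22, adjusted p = 0.795) in Ly6c2-low monocytes. Fcer1g differed by 0.073 (SE 0.12) in Ly6c2-high and 0.19 (SE 0.16) in Ly6c2-low monocytes and by 0.24 (SE 0.21) in NK cells. The difference of the age effect between the monocyte gates passed for none of the 8 members, nor for any gene (0% of 5688), and 0 members were under an unadjusted p of 0.05.

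In B cells Fcer2a, at 260 and 254 CPM in the young and 81.5 and 76.5 CPM in the old samples, was lower in old blood, with a log2 difference of -1.63 (SE 0.10, adjusted p = 0.0167). After thinning, 23.2% and 24.0% of young and 10.8% and 10.5% of old B cells had an Fcer2a UMI. Fcgr2b, at 71.2 and 69.2 CPM in the young and 139 and 130 CPM in the old samples, rose by 1.00 (SE 0.10, adjusted p = 0.0167). Neither gene's ages overlapped, as was so for 57.3% of the genes tested in B cells. The Fcgr2b call was lost without young 1 (adjusted p = 0.0611) and without young 2 (0.0632), at differences of 0.96 and 1.04.

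S100a6, which encodes a calcium-binding protein, marked more of the B cells of old blood. Cells with 2 or more S100a6 UMIs were 14.8% and 9.53% of young and 60.5% and 39.9% of old B cells, so B cells were also split by it, against cells with no S100a6 UMI. The split follows depth too, with a median of 4517 UMIs in S100a6-positive and 2066 in S100a6-negative cells. S100a6-positive cells were lower in Fcer2a and higher in Fcgr2b than S100a6-negative cells, with the sample as a term, where 28.6% of 4440 genes differed. Fcer2a stood at 97.4, 88.8, 26.0 and 22.3 CPM in S100a6-positive and at 329, 294, 274 and 169 CPM in S100a6-negative B cells (-2.42, SE 0.28, adjusted p = 0.000490). Fcgr2b stood at 65.3, 80.7, 157 and 149 CPM in positive and at 71.8, 66.6, 79.1 and 105 CPM in negative cells (0.49, SE 0.15, adjusted p = 0.0337). It was higher in positive cells in 3 of 4 samples, the exception being young 1. This Fcgr2b call was lost without young 2 (adjusted p = 0.0830), old 1 (0.0641) or old 2 (0.109).

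With all 4 samples and the 10% filter, no member passed with age within the S100a6-negative or the S100a6-positive cells. In S100a6-negative B cells, where 0.0422% of genes differed with age, Fcer2a differed by -0.47 (SE 0.19, adjusted p = 0.397) and Fcgr2b by 0.44 (SE 0.16, adjusted p = 0.372). Without old 1, where 4.81% of genes differed, both passed (adjusted p = 0.00938 and 0.0260, at -0.83 and 0.65). In S100a6-positive cells, where 0.199% of genes differed, Fcgr2b differed by 1.07 (SE 0.19, adjusted p = 0.0657), and passed without old 2 (adjusted p = 0.0192), where 7.40% of genes differed. Fcer2a was under the 10% filter in old S100a6-positive cells. Without the filter, where 0.713% of genes differed in S100a6-positive cells, both passed. Fcer2a differed by -1.89 (SE 0.19, adjusted p = 0.00164) and Fcgr2b by 1.12 (SE 0.19, adjusted p = 0.0303). Whether the age effect differed between the parts was tested too, and 0 of 3 members passed (0.0450% of genes did): Fcer2a gave -1.52 (SE 0.21, adjusted p = 0.0941), Fcgr2b 0.62 (SE 0.22, adjusted p = 0.531) and Fcer1g -0.78 (SE 0.27, adjusted p = 0.531). All 3 had an unadjusted p under 0.05. Without old 2, where 8.51% of all genes passed, all 3 did (adjusted p = 1.32e-05, 0.00836 and 0.0109). Fcer2a also passed without old 1 (adjusted p = 0.00130, with 2.05% of genes), without cells carrying platelet RNA (0.0456, with 0.0699%) and without the filter (3.91e-09, with 0.793%).

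Fcgr4 appeared in B cells at a low level. It stood at 0.348 and 2.01 CPM in the young and 10.3 and 13.2 CPM in the old samples, from 2, 11, 137 and 84 UMIs, too few cells for the 10% filter. Tested without the filter, where 5.93% of genes differed, it rose by 3.37 (SE 0.51, adjusted p = 0.00634). In S100a6-positive B cells it stood at 0.641, 9.08, 12.9 and 20.6 CPM and in S100a6-negative ones at 0.281, 0.254, 1.63 and 1.97 CPM (3.46, SE 0.41, adjusted p = 3.26e-15 without the filter, where 16.2% of genes differed). The level was higher in positive cells in 4 of 4 samples, and T cells held 0 to 3.04 CPM. Over all samples these values rested on 214 Fcgr4 UMIs in positive and 9 in negative cells. In young 1 the 3 activating IgG receptor genes together had 3 UMIs in positive and 2 in negative cells, too few to give a direction there. Within S100a6-positive cells the age difference of 2.04 (SE 0.68) did not pass (adjusted p = 0.310). After thinning, 0.818% of S100a6-positive and 0.0625% of S100a6-negative B cells had an Fcgr4 UMI. The 8 markers of Ly6c2-low monocytes, the type with the highest Fcgr4, summed to 580, 521, 537 and 524 CPM in positive and 438, 366, 387 and 365 CPM in negative B cells, higher in the positive cells in each sample. This sum also reached 279 to 489 CPM in NK cells and 175 to 404 CPM in T cells. It is therefore no measure of monocyte RNA alone. Lyz2, a gene of all monocytes, stood at 42.3, 124, 238 and 155 CPM in positive and 56.7, 142, 311 and 171 CPM in negative B cells, lower in the positive cells in each sample. The B cell gate itself left out cells with more than 4 Lyz2 UMIs. In the deeper S100a6-positive cells that limit stands at a lower CPM, so this comparison cannot tell which part held more monocyte RNA. Over all B cells Lyz2 stood at 52.4 and 140 CPM in the young and 253 and 163 CPM in the old samples, higher in the old ones as Fcgr4 was. The part of monocyte RNA in the Fcgr4 values was not tested.

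Platelet RNA moved with age in the same cells. The 9 platelet markers summed to 1.05 and 10.4 CPM in young and 555 and 375 CPM in old B cells. Without the 0 to 19.5% of B cells that carried 2 or more UMIs of Ppbp and Pf4, Fcgr2b stood at 71.2, 69.2, 131 and 130 CPM, Fcer2a at 260, 254, 90.1 and 78.6 CPM and Fcgr4 at 0.348, 2.01, 6.97 and 12.9 CPM, with both calls kept for Fcer2a and Fcgr2b. Haemoglobin RNA (5 red cell markers) was lowest in young 1 and summed to 16176 CPM there and 45791 to 88887 CPM in the other samples. Its part in these results was not tested beyond taking its genes out of the counts, which changed none of the counts of members called.

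**Figure D5:**
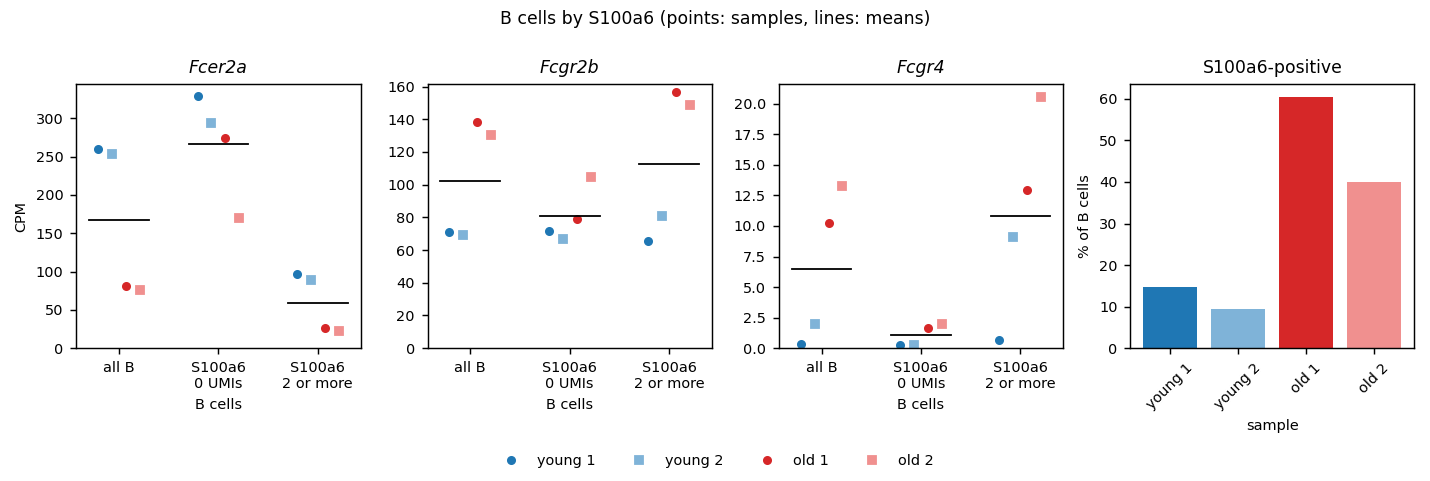
CPM of Fcer2a, Fcgr2b and Fcgr4 in all B cells and in those with 0 or with 2 or more S100a6 UMIs, with a point for each sample, a line at the mean and axes from 0, and the percentage of B cells that were S100a6-positive. Fcer2a fell from 254 to 260 CPM in young to 76.5 to 81.5 CPM in old B cells, whereas in S100a6-negative cells old 1 (274 CPM) lay near the young values.

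Genes that work beside the receptors were taken from 5 lists. Each was set between Ly6c2-low and Ly6c2-high monocytes, where 12.8% of all genes passed in either direction. Of 36 genes of proximal Fc receptor signaling 29 were tested between Ly6c2-low and Ly6c2-high monocytes, and 8 were higher and 0 lower, with a median difference of 0.36 against 0.028 over all genes. The largest were Fyn (2.26, SE 0.49, adjusted p = 0.00129), a Src family kinase, Ptpn11 (1.76, SE 0.39, adjusted p = 0.00163), a tyrosine phosphatase, and Prkcb (1.14, SE 0.28, adjusted p = 0.00470), a protein kinase C. Of 3 other signaling adaptors (Tyrobp, Hcst and Cd247) 0 passed by edgeR, Hcst alone having an unadjusted p under 0.05 (0.65, SE 0.23, adjusted p = 0.0592). Of 11 tested receptors that use the γ chain, 2 were higher, Lilra5 (85.9 against 0.405 CPM, too low in Ly6c2-high cells for a fold) and Cd300ld (3.37, SE 0.31), and 2 lower, Pira2 (-2.30, SE 0.36) and Lilra6 (-2.26, SE 0.55). Of 9 tested relatives Clec4a1 was higher (0.63, SE 0.21) and Clec4a2 (-2.20, SE 0.28) and Pirb (-0.89, SE 0.21), both inhibitory receptors, were lower. Of 7 tested surface partners 3 were higher, Itgax (67.1 against 1.97 CPM), Cd9 (3.26, SE 0.49) and the tetraspanin Cd81 (2.20, SE 0.33).

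With age, 1 of 188 tests over these lists was called higher and 1 lower. The higher one was 1 of 24 tests in B cells, where 6.35% of all genes were called. The lower one was 1 of 30 in the Cd200r3-positive gate, where 0.374% were. The adaptor Lat fell by 2.48 in the Cd200r3-positive gate (SE 0.49, adjusted p = 0.0115), where the summed T cell markers also stood at 1128 and 565 CPM in the young and 97.2 and 185 CPM in the old samples, and the part of these T cell markers in the Lat result was not tested.

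By the same measure of likeness as above, the genes most like Fcer1g were Tyrobp (r = 0.976), the adaptor DAP12, Ptpre (0.942) and Fcgr3 (0.923), and those most like Fcgr3 were Tyrobp (0.932), Emilin2 (0.928) and Fcer1g (0.923). Fcgr1 was most like Sirpb1b (0.974), Fcgr4 most like Gngt2 (0.880) and Fcgr2b most like Napsa (0.874).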

How the data were processed

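Single-cell RNA-seq (10x Chromium 3′) was made from the peripheral blood mononuclear cells of 2 young and 2 old pools. Per the submitters' processing notes and the methods, the authors aligned reads with Cell Ranger to mm10, aggregated the duplicates of each age with its aggregation step, filtered cells on detected genes and mitochondrial share, and merged the ages in Seurat 2.3.0; the deposited tables hold whole UMI counts per gene and cell. Aggregation can thin the deeper library of an age, and whether it did so was not given in the sources used here. No barcode was removed as a doublet in the work described here.

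Cells were gated on raw UMIs of markers that are not members. The UMIs of each gated type were added up within a pool and these sums entered edgeR 4.0.16 (R 4.3.3; TMM, glmQLFit and glmQLFTest, Benjamini-Hochberg threshold 0.05). A gene was kept where 10% or more of the gated cells of both ages had a UMI of it, or, in the fit over 7 types, 10% of the cells of any type. DESeq2 1.42.0 was an alternative. Gating limits were 4 UMIs of B cell and 2 of T or NK cell markers, 1 of Csf1r and 3 of Lyz2 with Ly6c2 at 4 or more (high) or 1 or fewer (low), and 1 of Cd200r3. B, T and NK cells were also required to have no Csf1r UMI and at most 4 of Lyz2. Shares were taken after thinning each cell to 1000 UMIs with Python 3.11.15, numpy 2.4.6 and pandas 2.3.3. Limits on a count of 0 use 3 counts and cover counting error only. The fits were tested on simulated data. Numbered samples of the 2 ages did not deviate together (correlations from -0.09 to 0.06). The members, lists and named genes were chosen with earlier results of these data known: the text names members, the largest called changes of each list and the 3 genes most like a member. Gene positions are from GENCODE vM21, promoters from RefSeq. A result of the lists is not reported here.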

Additional observations from a re-analysis of the deposited data

Results flagged for a closer look

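Members also had UMIs in cells that entered no comparison. In 36 macrophage-like cells (5, 7, 2 and 22 in young 1, young 2, old 1 and old 2) the mean of the 4 samples was 2092 CPM for Fcer1g, 898 CPM for Fcgr3, 286 CPM for Fcgr2b and 102 CPM for Fcgr4. Of these cells 60%, 85.7%, 0% and 81.8% in the same order carried 2 or more UMIs of Ppbp and Pf4. The part of platelet RNA in their levels was not tested. In 58 monocytes between the Ly6c2 limits the means were 3511 CPM for Fcer1g, 398 CPM for Fcgr3, 224 CPM for Fcgr2b, 103 CPM for Fcgr1 and 91.4 CPM for Fcgr4. These levels were above those of T cells in all 4 samples.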

How the results depend on the processing

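Of 132 alternative counts of members called, 119 stayed within 1.5 times the main count or at 0, and of 349 alternatives for single members 306 kept direction and side of the threshold, 18 lost a call, 4 gained one and 21 turned direction; the causes were not tested. The number called with age in B cells, 2, was 1 to 2 on leaving out a sample, 1 on thinning to 1000 UMIs, and 0 in S100a6-negative and in S100a6-positive cells, also without platelet RNA. DESeq2 called 3 of 8 top types, and the young samples alone gave 1 call between monocytes. The S100a6 difference of age effects gave 0 to 3 calls on leaving out a sample, 1 without platelet RNA and 1 without the filter.

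No call turned direction. With age in Ly6c2-high monocytes, Fcgr3 turned to 0.060 without the filter and 0.025 with Ly6c2 limits by CPM, and Fcer1g to -0.012 with the Lyz2 gate; leaving out a sample gave -0.11 to 0.30 for Fcer1g and -0.0099 to 1.10 for Fcgr4. In Ly6c2-low monocytes Fcgr2b turned to 0.0049 with DESeq2, 0.046 with the replicate block, 0.10 thinned, 0.12 with Ly6c2 limits by CPM and 0.066 with the Lyz2 gate, and ran from -0.41 to 0.32 on leaving out a sample, as Fcgr3 ran from -0.96 to 0.033. Leaving out a sample gave -0.30 to 0.69 for Fcgr3 in NK cells, -1.85 to 0.16 for Fcgr2b, -0.00098 to 0.34 for Fcer1g and -0.41 to 0.82 for Fcgr1 in dendritic cells, and -0.20 to 1.17 for Fcer1g and -0.69 to 0.30 for Ms4a2 in Cd200r3-positive cells. Fcgr2b between monocytes was 0.026 in the young samples alone.

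The replicate block kept both B cell calls (Fcer2a -1.63, adjusted p = 0.00893; Fcgr2b 1.00, adjusted p = 0.0127) and gave no other member call; it called 205 genes in B cells against 170, and 37 against 1 in Ly6c2-low monocytes and 7 against 16 in NK cells. Genes called with age in B cells were 540 with DESeq2, 586 with filterByExpr, 848 without the filter, 57 thinned and 12 to 776 on leaving out a sample. For the 26 in Ly6c2-high monocytes the alternatives gave 0 to 98, for 1 in Ly6c2-low monocytes up to 43, for 16 in NK cells 0 to 17, for 7 in dendritic cells 0 to 14 and for 10 in Cd200r3-positive cells 0 to 40. Age fits of the 44 Cd200r3-positive cells of no other lineage, and of those with 2 Cd200r3 UMIs, were not run, since a sample held 4 cells or 1. Depth limits the rare types most: 20 to 22 young Ly6c2-high monocytes and 10 to 23 dendritic cells a sample.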
